A study of Mus musculus with 6 samples.

Results

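Genes of blood vessel mural cells were examined in mouse inguinal adipose tissue (iAT), the subcutaneous fat depot of the groin. The 9 genes are *Acta2*, *Tagln*, *Cnn1*, *Notch3*, *Cspg4*, *Des*, *Mcam*, *Smtn* and *Myocd*, chosen by symbol from the 19831 genes listed, as pericyte and smooth muscle genes other than myosins and *Rgs* genes. All 9 were found. Total RNA was sequenced from 3 wild-type samples of iAT and from 3 samples that lacked neuropeptide FF receptor-1 (Npffr1-KO, here KO), all taken at postnatal day 6. The labels name no treatment. The labels state neither the strain, the sex nor the way in which the receptor was deleted, nor whether the 3 samples of a genotype came from separate animals. P-values therefore measure the spread between these samples, which may be technical.

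Mural cells wrap the endothelial tube of vessels. Vascular smooth muscle cells surround arteries and veins and set their width by contraction, while pericytes lie along capillaries. Smooth muscle cells build their contractile apparatus under the control of serum response factor and its coactivator myocardin. Serum response factor binds CArG boxes in the promoters of contractile genes. Endothelial Notch ligands act on the receptor Notch3 of mural cells and hold them in a mature state. In fat, mural cells accompany the dense capillary bed between adipocytes, and adipocyte progenitors lie close to vessels.

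For 8 of the 9 genes the data hold 1 value per genotype, a read count normalized for library size by the authors, with no spread. Over all listed genes they summed to 23137343 normalized counts for wild-type and 23640005 for KO. These genotype values are not plain means of the libraries, since the authors' procedure draws the 2 values of a gene together, for some genes much more than for others. No test between the genotypes was possible for these 8 genes. For genes with a mean under 65 normalized counts the whole counts of the 6 single libraries were recovered from the deposited digits, and *Myocd* was the only one of the 9 in that range. The libraries found in this way could not be tied to sample numbers and are called a, b and c within a genotype in the order of their size factors, which is a name only.

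One library stood apart. The counts of 12 recoverable skeletal muscle markers summed to 109, 126 and 130 in the wild-type libraries, to 110 and 133 in KO libraries a and b, and to 894 in KO library c. *Ckm*, muscle creatine kinase, had 2, 3 and 2 counts in wild-type libraries and 6, 1 and 215 in KO libraries a, b and c. The fast myosin *Myh1* had 4, 6 and 2 counts against 0, 0 and 289. Library c therefore held 93.9% of all *Ckm* counts and 96.0% of all *Myh1* counts (both genes were singled out after their values were seen). The authors' genotype values of *Ckm* were 27.5 and 46.4, while the means of its recovered libraries were 2.28 for wild-type and 71.6 for KO, so the genotype values understate such differences. The total of recovered counts of KO library c, 90604, was close to those of the wild-type libraries, which lay between 86599 and 88416. KO library a had the lowest total, 71048, and KO library b had 82572. The targeted gene, *Npffr1*, had 5, 0 and 1 counts in the wild-type libraries and 0 in each KO library, too few to check the genotype of a single library.

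Per kilobase of gene length, the mural genes spanned a wide range of levels in wild-type iAT. Of the 9, 7 lay above the median gene of those with a mean of at least 10, at 193 normalized counts per kilobase. *Mcam*, an adhesion molecule of mural and endothelial cells also known as CD146, was highest with 4468 normalized counts per kilobase, at percentile 97.8 of the 15309 genes whose mean was at least 10. *Acta2*, the smooth muscle actin, followed with 4047, and *Tagln*, the actin-binding transgelin, with 2608. Below them came *Smtn*, the smooth muscle cytoskeletal protein smoothelin, with 1215, the receptor *Notch3* with 868 and the intermediate filament desmin, *Des*, with 648 normalized counts per kilobase. *Cspg4*, the pericyte proteoglycan NG2, reached 225, near the median gene. The calponin *Cnn1*, a marker of fully contractile smooth muscle, lay below it with 166. *Myocd*, which encodes myocardin, had 4.33 normalized counts per kilobase and thus stood at percentile 1.82. These places depend on the minimum mean of 10. Among all 19831 listed genes *Myocd* stood at percentile 20.6 and *Cnn1* at 58.4, and 8 of the 9 lay above the median. Without a spread it cannot be said which neighbours in this order differ. The order in KO was the same except that *Des*, with 771, stood above *Notch3*, with 647.

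**Figure D1:**
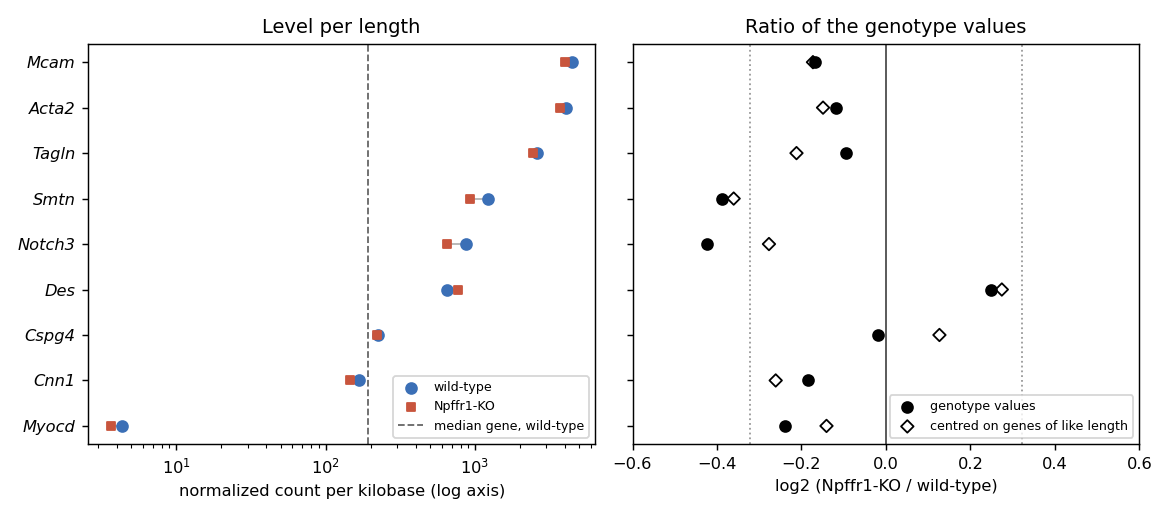
Left, level of each mural gene in normalized counts per kilobase on a log axis, with 1 value per genotype (blue circles, wild-type, red squares, KO) and the median gene in wild-type as a dashed line. Right, log2 ratio of the KO to the wild-type value (filled circles) and the same ratio less the median of genes of like length (open diamonds), with dotted lines at 0.322 in either direction. *Notch3* and *Smtn* lie beyond the left line before centring, and *Smtn* alone after it.

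Of the members whose promoter was at hand, *Acta2* was the one with CArG boxes, so its sequence is shown. The 100 bases before its start in RefSeq, at chr19:34255374-34255473 of GRCm38.p6 on the minus strand, read 5′ to 3′ with both boxes in capitals.
*Acta2*: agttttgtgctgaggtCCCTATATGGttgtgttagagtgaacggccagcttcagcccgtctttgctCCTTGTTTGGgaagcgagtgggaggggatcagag
The boxes begin 84 and 34 bases before the start. The CArG box is a pair of C and a pair of G around a core of 6 bases made of A and T, and reads the same pattern on both strands. Each box of *Acta2* has 1 other base in its core. RefSeq promoters, from 250 bases before to 50 after the start, were at hand for 7 of the 9 genes, all but *Tagln* and *Myocd*. Allowing 1 other base in the core, *Acta2* was the only one of the 7 with a box, and it had 2. Of 32851 RefSeq promoters of that length, 9.98% held at least 1 such box and 0.822% at least 2, while 1.63% held a box with no other base. The word TGGGAA, bound by the Notch effector RBPJ, was searched on both strands. It was present once each for *Acta2*, where it overlaps the second CArG box, and *Smtn*, and in 25.6% of all promoters. These matches are descriptions of the letters in these windows.

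Between the genotypes, *Notch3* and *Smtn* had the largest differences of the 9 genes, both lower in KO. *Notch3* had 6895 normalized counts (wild-type) against 5142 (KO), 25.4% lower. Its log2 ratio was -0.42, at percentile 7.12 of the ratios of all genes tested. *Smtn* had 4063 and 3105 normalized counts, 23.6% lower, with a log2 ratio of -0.39. A log2 ratio of at least 0.322 in size was taken as marked. These were the 2 markedly lower genes of the 9, and none was markedly higher. Of all 15309 genes, 11.6% were markedly lower and 12% markedly higher in KO. Among 5283 genes whose mean was at least 1000, the range of 7 of the 9 members, these shares were 6.57% and 9.88%.

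The other contractile genes had smaller ratios. *Acta2* had 10408 normalized counts (wild-type) against 9588 (KO), a log2 ratio of -0.12. *Tagln* had 4137 and 3877, a log2 ratio of -0.09. *Cnn1* had 330.4 and 290.7, a log2 ratio of -0.18. None of these 3 reached 0.322 in size, and no spread is known for them.

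*Mcam* had 12920 normalized counts (wild-type) against 11507 (KO), with a log2 ratio of -0.17. *Cspg4* was nearly level, with 1810 and 1786 and a log2 ratio of -0.02. The transcripts of these 2 surface proteins, both used to sort pericytes, had values lower by 10.9% and 1.35%.

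*Des* was the only member with a higher value in KO. It had 1987 normalized counts (wild-type) against 2362 (KO), 18.9% higher, a log2 ratio of 0.25 at percentile 82.0. Desmin is the intermediate filament of skeletal muscle fibres as well as of mural cells. Of 18 skeletal muscle markers, 13 had a mean of at least 10, and all 13 were higher in KO. Of these, 12 were markedly higher, against 12% of all genes. The recovered wild-type means of *Ckm*, *Myh1* and *Myh2* were 2.28, 3.93 and 1.32, so they passed this minimum only through KO. The selection thus favours higher values in KO. Among the markers under it, *Myh3* and *Myod1* were lower in KO, and *Myh4*, *Pvalb* and *Myog* higher. KO library c held 894 of the recoverable counts of such markers, where no other library had more than 133. Skeletal actin, *Acta1*, had 170.6 normalized counts (wild-type) against 409.9 (KO). The values of *Des* in single libraries could not be recovered, so the part of library c in its difference was not tested.

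Taking the direction alone, 8 of the 9 genes had a lower value in KO, against 48.8% of all genes. The median log2 ratio of the 9 genes was -0.17, and that of all genes tested was 0.01. Apart from *Myocd*, these directions could not be tested between libraries. In bulk tissue, the number of mural cells and the RNA per mural cell cannot be told apart.

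The ratios depended on gene length across all genes. In 20 classes of length, the median log2 ratio fell from 0.27 for genes of up to 837 bases to -0.15 for genes of at least 7431 bases. *Notch3*, with 7943 bases, and *Cspg4*, with 8050 bases, both fall in the longest class. Less the median of its class, the log2 ratio of *Notch3* was -0.28, no longer marked, and that of *Cspg4* turned to 0.13. *Smtn*, with 3343 bases, kept -0.36. *Tagln*, a short gene of 1586 bases, moved from -0.09 to -0.21, and *Cnn1* from -0.18 to -0.26. After this centring 7 of the 9 genes were lower in KO, against 50% of all genes, and 1 gene, *Smtn*, was markedly lower, against 11.6%. The cause of the trend over length was not tested.

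**Figure D2:**
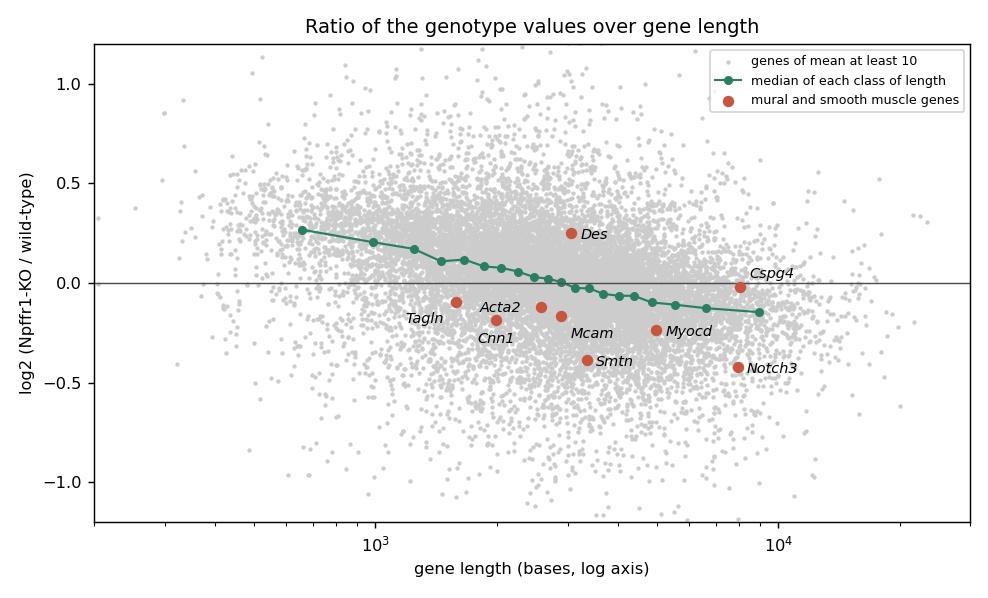
Log2 ratio of the KO to the wild-type value against gene length in bases on a log axis, for genes with a mean of at least 10 (grey; a few lie beyond the axes), with the median of each of 20 classes of length (green) and the 9 mural genes (red). The green line falls from 0.27 to -0.15, and *Notch3*, *Smtn*, *Cnn1* and *Tagln* lie below it while *Des* and *Cspg4* lie above it.

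*Myocd* was the only member with values for single libraries. It had 15, 32 and 21 counts in wild-type libraries a, b and c, and 9, 20 and 24 in KO libraries a, b and c. Divided by the size factors, these were 14.9, 31.3 and 20.3 normalized counts in wild-type and 9.82, 20.2 and 23.1 in KO. The groups overlapped, with the lowest value in KO library a and the highest in wild-type library b. The means were 22.2 ± 8.38 in wild-type and 17.7 ± 6.99 in KO (SD, n = 3 each), beside the authors' genotype values of 21.6 and 18.3.

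The difference of *Myocd* was smaller than the spread between libraries. On the log2(normalized count + 1) scale it was -0.33 with an SE of 0.42 and an adjusted p of 0.82 in limma across 2428 recovered genes, with Benjamini-Hochberg adjustment. The exact two-sided permutation test gave p = 0.5, where 3 libraries against 3 can reach no less than 0.10. Without KO library a the difference was 0.027, without wild-type library b it was -0.056, and without KO library c, the one with high skeletal muscle counts, it was -0.55. Among the 2428 genes, 0 passed an adjusted p of 0.05 in limma (0%), and 288 had an unadjusted p under 0.05.

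A few other genes of smooth muscle and pericytes were also low enough for their library counts to be recovered, and are named for that reason. *Pln*, phospholamban, a brake on the calcium pump of the sarcoplasmic reticulum, had 28, 32 and 35 counts in wild-type and 17, 13 and 29 in KO. Its normalized counts were 27.8, 31.3 and 33.8 in wild-type against 18.5, 13.1 and 27.9. After scaling, KO library c exceeded the lowest wild-type library by a little. The log2 difference of *Pln* was -0.67 with an SE of 0.36, and the adjusted p in limma was 0.50.

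*Kcnmb1*, a subunit of the large-conductance potassium channel of smooth muscle, had 63, 67 and 35 counts in wild-type and 39, 55 and 37 in KO. *Adra1b*, an adrenergic receptor, had 50, 53 and 43 against 19, 39 and 68, so that library c held the highest and library a the lowest value. *Trpc6*, a cation channel, was level, with 46, 49 and 38 against 41, 37 and 48. The Notch target *Hes5* was near the floor, with 12, 16 and 6 counts against 3, 3 and 7. The groups overlapped for each of these 4 genes, and none of the 3 that entered limma passed (adjusted p from 0.78 to 0.99). *Hes5* had a mean under 10 and was not fitted there.

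**Figure D3:**
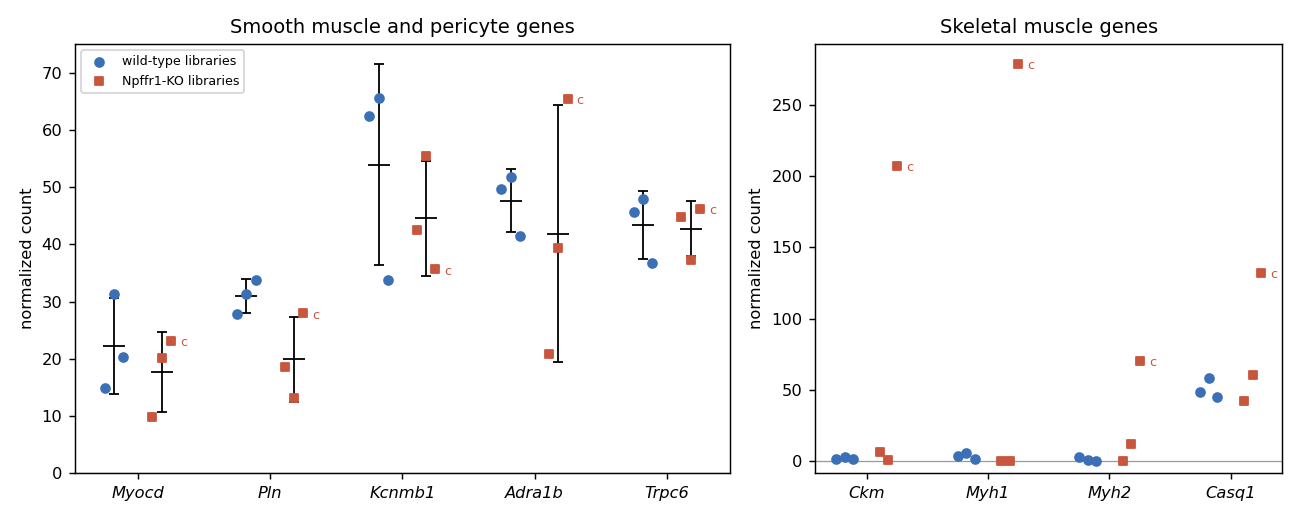
Normalized counts in the 6 libraries for recoverable smooth muscle and pericyte genes (left, with mean and SD, n = 3) and skeletal muscle genes (right, points only). Blue circles are wild-type and red squares KO libraries, and the letter c marks KO library c, which is far above the other libraries for *Ckm* and *Myh1* while the genotypes overlap for every gene on the left.

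The contractile genes outside the 9 had both directions. Of 20 smooth muscle contractile genes, 5 were markedly lower in KO and 1 markedly higher, beside 11.6% and 12% of all genes, with a median log2 ratio of -0.12. The smooth muscle myosin *Myh11* had the lowest ratio, from 5931 to 4042 normalized counts, a log2 ratio of -0.55. The integrin *Itga8* followed with a log2 ratio of -0.55 as well, from 233.9 to 160.0 normalized counts. *Cnn2*, the calponin that many non-muscle cells also express, was the one that was higher, from 4824 to 6772 normalized counts, a log2 ratio of 0.49. It thus differed in direction from *Cnn1*. Among the most abundant genes of this list, the amine oxidase *Aoc3* and the filamin *Flna* had log2 ratios of 0.08 and 0.01. *Aoc3* is also strongly expressed by adipocytes. The small phosphatase inhibitor *Ppp1r14a* had a log2 ratio of 0.10, which became -0.17 after centring on length.

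Among the actins, *Acta2* and the enteric smooth muscle actin *Actg2* were lower, the latter from 423.9 to 384.3 normalized counts. The cytoplasmic actins *Actb* and *Actg1*, which most cells express, were higher, with log2 ratios of 0.41 and 0.47. Annotated *Acta2* transcripts shared 1.39% of their stretches of 31 bases with those of other genes, *Actb* and *Actg1* included. The largest such share among the other members was 1.35%, for *Notch3*.

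Most pericyte genes outside the 9 had somewhat lower values in KO, in 11 of 16, against 48.8% of all genes. Of these 16, 1 was markedly lower and 0 markedly higher, beside 11.6% and 12% of all genes, with a median log2 ratio of -0.13. The markedly lower gene was *Abcc9*, the regulatory subunit of the potassium channel of pericytes, with 4721 and 3679 normalized counts and a log2 ratio of -0.36. The abundant *Rgs5*, *Pdgfrb* and *Ebf1* had log2 ratios of -0.19, -0.21 and -0.22. *Gja4*, a gap junction protein, had -0.23. After centring on length *Abcc9* had -0.23 and was no longer marked, while *Gja4*, at -0.35, and *Vtn*, which encodes vitronectin, at -0.33, became the 2 marked genes (*Vtn* was named after its value was seen). The short mitochondrial genes *Cox4i2* and *Ndufa4l2* had 0.25 and 0.18, and both came to -0.02 or -0.03 after centring on length.

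Most of the genes that set vascular tone had lower values in KO. Of 17, 10 were markedly lower in KO and 0 higher, against 11.6% and 12% of all genes. Their median log2 ratio was -0.33, which was -0.27 with 7 genes lower and 1 higher after centring on length. *Gucy1a3*, a subunit of the nitric oxide receptor guanylate cyclase, had 2521 and 1765 normalized counts and a log2 ratio of -0.51. The endothelin receptor *Ednrb* had -0.30 and the calcium pump *Atp2b4* -0.33. Some of these genes are expressed by other cells of fat as well, and the 3 recoverable ones, *Pln*, *Kcnmb1* and *Adra1b*, did not pass in limma.

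Upstream of the contractile genes, the myocardin and serum response factor axis had both directions in near equal number. Of 13 genes, 7 were lower and 6 higher, and the median log2 ratio was -0.01. *Srf* itself, the partner of myocardin, had 1829 normalized counts (wild-type) against 2231 (KO), a log2 ratio of 0.29. The related coactivator *Mkl2* had -0.318 and the ternary complex factor *Elk4*, which also joins serum response factor, had -0.333. *Elk4* was the only gene of the list beyond 0.322 in size, and after centring on length it had -0.28. *Srf*, at 0.35, and the cofactor *Fhl2*, at -0.34, were the marked genes after that centring (*Fhl2* was named after its value was seen). *Klf4*, which represses contractile genes in smooth muscle, had 0.20 and *Klf2*, a flow-responsive endothelial factor, had 0.19. *Prrx1*, a mesenchymal factor, had -0.27.

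Most genes of the Notch pathway had lower values in KO. Of 21 genes with a mean of at least 10, 18 had a lower value, against 48.8% of all genes, while 3 were markedly lower and 2 markedly higher, against 11.6% and 12%. After centring on length 15 of the 21 had a lower value, against 50% of all genes. The median log2 ratio went from -0.18 to -0.14, and the marked genes still numbered 3 lower and 2 higher. *Notch1* had 3750 and 2702 normalized counts, a log2 ratio of -0.47, close to that of *Notch3*. The ligand *Jag2* had -0.45. The transcriptional target *Hes1* had 962.4 and 1315 normalized counts, a log2 ratio of 0.45. Other targets went either way, with 0.15 for *Heyl*, -0.21 for *Hey1* and -0.23 for *Hey2* (named after their values were seen). The glycosyltransferase *Lfng*, which changes how Notch receptors answer to their ligands, had 0.43 while its relative *Mfng* had -0.24. *Ncstn*, a part of gamma-secretase, was nearly level with -0.07.

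Among 13 ligands and receptors of mural recruitment, 3 were markedly lower and 0 higher, beside 11.6% and 12% of all genes, with a median log2 ratio of -0.22. After centring on length 2 were markedly lower, and the genes with a lower value numbered 9 in place of 12. *Eng*, *Tgfbr2* and *Pdgfrb* had -0.24, -0.22 and -0.21. Of 14 endothelial markers, 8 were markedly lower and 0 higher, beside the same shares, with a median log2 ratio of -0.35. After centring on length 5 were markedly lower and the median was -0.30. The junction genes *Cdh5* and *Cldn5* had -0.37 and -0.44, and *Pecam1* had -0.28. The median of the 9 mural genes, -0.17, lay between that of the endothelial markers and that of all genes, and the difference between mural and endothelial genes was not tested.

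Markers of other cell types of the depot had values in both directions. Of 10 fibroblast and progenitor markers, 9 had a lower value, against 48.8% of all genes. Their median log2 ratio was -0.27, with -0.36 for *Col1a1*, -0.28 for *Col3a1* and -0.30 for *Postn*. Of these 10, 2 were markedly lower and 0 markedly higher, beside 11.6% and 12% of all genes. After centring on length 9 still had a lower value, 1 was markedly lower and the median was -0.20. *Col1a1* then had -0.25, no longer marked, *Col3a1* -0.17 and *Postn* -0.28. Of 8 Schwann cell and glial markers, 7 were markedly lower and 1 higher, beside 11.6% and 12% of all genes, and *Mbp*, a myelin protein, had a log2 ratio of -0.44. Adipocyte markers had a median of 0.12 over 10 genes, with 0.15 for *Fabp4*, 0.10 for *Lpl* and -0.13 for *Cfd*, and were among the most abundant transcripts of the lists. Of these 10, 0 were markedly lower and 2 markedly higher, beside 11.6% and 12% of all genes. *Lep*, which encodes leptin, had the highest ratio, 1.05 (named after its value was seen). After centring on length the adipocyte markers had a median of 0.04, with 2 markedly lower and 1 markedly higher, and *Fabp4*, of 646 bases, turned to -0.12. Mammary basal epithelium, whose myoepithelial cells also make *Acta2* and *Cnn1*, had few counts. Its keratins *Krt5* and *Krt14* had 0 to 21 and 0 to 11 counts per library, highest for both in KO library c, far below the level of *Acta2*. *Oxtr*, *Trp63* and *Epcam* of the same list had log2 ratios of 0.03, -0.46 and 0.34 at no more than 121.5 normalized counts. The part of these cell types in the values of the 9 genes was not tested.

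**Figure D4:**
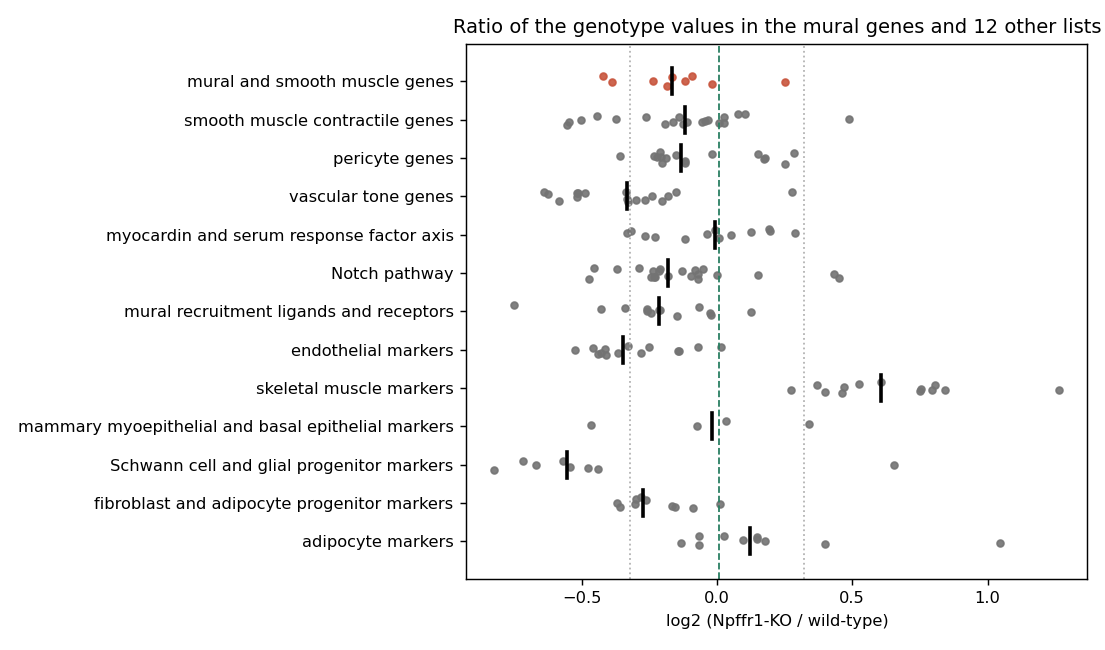
Log2 ratio of the KO to the wild-type value for each gene with a mean of at least 10 (points, spread vertically for display) in the 9 mural genes (red) and 12 other lists (grey), with the median of each list (black bars), the median of all genes (green dashes) and the size of 0.322 (dotted). The median of the mural genes is -0.17, that of vascular tone genes -0.33, of endothelial markers -0.35 and of skeletal muscle markers 0.60.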

How the data were processed

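RNA of 6 iAT samples, grouped by the genotype in their labels, was analysed. The deposited expression columns hold a signal, read counts normalized by the authors with DESeq2 and given as 1 value per genotype. The labels also name Bowtie2 and RSEM, without versions. Genome build and annotation: not given in the sources used here. The ratio of both columns equals the fold change the authors deposited. Their mean is the mean normalized count of the 6 libraries. Columns holding the authors' own fold changes, p-values and adjusted p-values were not used as results, nor was a second table with 90 of the same genes.

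A ratio is the Npffr1-KO value over the wild-type value, called marked where its log2 was at least 0.322 in size and the mean at least 10, without a test. Levels were divided by the deposited gene length.

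Genes with a single count (585) gave 6 size factors, between 0.916 and 1.04, and the genotype of each library. A lattice search over whole counts then matched the mean of both deposited values of a gene, within the 15 significant digits given. The wild-type and KO values themselves were not matched. A match was found for 6950 of 6952 genes with a mean under 65, with exactly 1 combination of counts each. The direction from these counts equalled that of the genotype values for 4868 of 4868 genes whose log2 ratio exceeded 0.1 in size. The search started from the genotype values and kept counts within a set distance of them, so this is not an independent check. The recovered counts may be rounded estimates. Search and fit were tested on simulated data.

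Recovered counts divided by size factors were tested in limma 3.58.1 (R 4.3.3) with a variance trend on log2(normalized count + 1), and by exact permutation (scipy 1.17.1). The limit of 65 was set after seeing the data. The members and the lists were chosen with earlier results of these data known. Named are the 9 genes, *Npffr1*, the 3 most abundant genes of each list and, of 4 lists (contractile, pericyte, Notch, serum response factor), the 2 largest ratios in each direction at a mean of at least 100. Other names were chosen after their values were seen. Some genes that this rule names are not reported here. Stretches of 31 bases were compared in GENCODE M21 transcripts. Alternatives were thresholds of 1.1-fold and 1.5-fold, minimum means of 0, 25 and 100, a pseudocount of 10, centring on all genes or on length, other scaling, no trend, and leaving out each library.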

Additional observations from a re-analysis of the deposited data

How the results depend on the processing

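The number of the 9 genes markedly lower in KO (log2 ratio of at least 0.322 in size) was 2. It was 5 at 1.1-fold, 0 at 1.5-fold and 1 (*Smtn*) after centring on genes of like length. The number higher was 0, and 1 (*Des*) at 1.1-fold. Without a minimum mean, with a minimum of 100, with a pseudocount of 10 or centred on the median of all genes, both counts were as given. After centring on length 2 pericyte genes were markedly lower (*Gja4* and *Vtn*, in place of *Abcc9*), 5 endothelial markers in place of 8, and 1 vascular tone gene (*Adra1a*) and 1 serum response factor gene (*Srf*) were markedly higher in place of 0, while *Fhl2* took the place of *Elk4* as lower. With a minimum mean of 100, 3 skeletal muscle markers were markedly higher in place of 12, since fewer genes were left. The log2 difference of *Myocd* ran from -0.57 to 0.027 as libraries were left out in turn, reversed only without KO library a, and no fit called it. The genes called by limma numbered 0, and 1 with a pseudocount of 10, 4 without a minimum mean, 1 without the trend, and 0 to 1 as libraries were left out. The single gene was *Gm3317*, or *Gm3488* without KO library b. Without a minimum mean the 4 were *Gm3317* and *Rgs7*, higher in KO, and *Gm3488* and *Foxd1*, lower in KO. These names were chosen after their values were seen, and none is among the 9 genes. The cause of these shifts was not tested. No paired analysis was possible because the deposited columns carry no replicate numbers and the recovered libraries could not be tied to samples. The lack of a value per library limits 8 of the 9 genes, and low counts limit *Myocd*.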

Other observations

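Outside the 9 mural genes, KO library c also held all 10 counts of *Myog*, the muscle transcription factor, and 82.0% of those of *Myh2*, a further fast myosin. The oxygen carrier *Mb*, in contrast, was spread over libraries, with 3, 3 and 13 counts in wild-type and 21, 11 and 14 in KO. In all, 9 of the 12 recoverable skeletal muscle markers were highest in library c. The genes of this paragraph were chosen after their values were seen.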
